A study of Mus musculus with 6 samples.

Results

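The genes described here encode the eIF4 translation initiation factors and the poly(A)-binding protein that contacts them: Eif4g1, Eif4g2, Eif4g3, Eif4e, Eif4e2, Eif4a1, Eif4a2, Eif4b, Eif4h and Pabpc1. They were taken by symbol, and all 10 had a row in the count tables and in the RPKM table, out of 23229 annotated genes and 2381 assembled regions. RNA came from sperm of the cauda epididymis and vas deferens of mice aged 4 months. Every preparation was from the C57BL/6 transgenic line HP3.1, so no group lacks the transgene, and the labels do not say what it carries. The 2 groups were nuclei, freed by sonication and spun through sucrose and caesium chloride with detergent (preparations nuclei 1 and nuclei 2), and whole sperm, extracted without those steps (1 preparation). Each preparation was sequenced in 2 runs, which were treated as combined in 1 column.

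In cap-dependent translation, eIF4E holds the cap of the mRNA, the scaffold eIF4G joins it to the RNA helicase eIF4A, and eIF4B and eIF4H stimulate that helicase. PABPC1 on the poly(A) tail binds eIF4G and so links the ends of the mRNA. Mature sperm carry RNA left from spermatogenesis and have little or no translation on cytoplasmic ribosomes, so these transcripts are generally read as remnants of earlier stages.

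The libraries held 5487306 (nuclei 1), 6648848 (nuclei 2) and 8316345 (whole sperm) gene and region counts. Whole sperm had no replicate. All 10 sperm and spermatid markers had counts in every library, with a summed level of 5166 and 4639 CPM (counts scaled to a common library size with TMM factors) in nuclei 1 and 2 and 2636 CPM in whole sperm. Markers of epididymal and vas deferens secretion (8 listed) summed to 2157 and 2350 CPM in nuclei against 14600 CPM in whole sperm, with Lcn5 and Rnase10 at 0 throughout. The 7 epithelial markers summed to 94.8 and 143 CPM in nuclei against 423 CPM in whole sperm, the 5 leukocyte markers to 20.6 and 7.35 CPM against 46.1 CPM, and the 6 smooth muscle and stroma markers to 104 and 72.9 CPM against 89.4 CPM, with Des at 0. The 5 Sertoli and Leydig markers summed to 27.7 and 3.60 CPM against 1.27 CPM, with Amh, Star and Insl3 at 0. Of 4 erythrocyte markers, 3 had a row and summed to 14.7 and 0.900 CPM against 24.4 CPM, with Hba-a1 and Hba-a2 at 0. The part of other cells in the values below was not tested, and in such bulk samples fewer cells of a type and less RNA per cell cannot be told apart.

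Eif4g1 stood far above every other gene of the group. Its counts were 33074 (nuclei 1), 82659 (nuclei 2) and 27434 (whole sperm), which placed it 3rd, 3rd and 6th by counts among annotated genes. Its share of all counts was 0.603% (nuclei 1; 95% exact binomial interval 0.596 to 0.609), 1.24% (nuclei 2; 1.23 to 1.25) and 0.330% (whole sperm; 0.326 to 0.334). The other 9 genes together took 0.0883% (nuclei 1; 0.0859 to 0.0909), 0.0718% (nuclei 2; 0.0698 to 0.0739) and 0.0862% (whole sperm; 0.0842 to 0.0883). The intervals cover counting error only and leave out the spread between preparations. The shares of Eif4g1 in nuclei 1 and nuclei 2 lay outside each other's intervals. Copies made in amplification were not told apart, so the intervals may be too narrow even for counting error. The totals include the ribosomal RNA gene Rn45s, which took 42.5% (nuclei 1), 33.3% (nuclei 2) and 43.4% (whole sperm). These shares therefore also depend on the level of Rn45s.

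Per length, in the authors' RPKM (reads scaled to transcript length; the value of 1 count was nearly the same in the 3 libraries in the median over features, so levels here are not corrected for the differing count totals), Eif4g1 was at 426 and 1042 RPKM in nuclei 1 and 2 and at 359 RPKM in whole sperm. The next gene was Eif4a1 at 19.3 RPKM (nuclei 1), Eif4g3 at 26.2 RPKM (nuclei 2) and again Eif4a1 at 44.6 RPKM (whole sperm). Eif4g1 thus exceeded the next gene by 22.1 times (nuclei 1), 39.7 times (nuclei 2) and 8.04 times (whole sperm). By RPKM it ranked 9th, 4th and 21st among annotated genes in the same order of libraries.

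**Figure D1:**
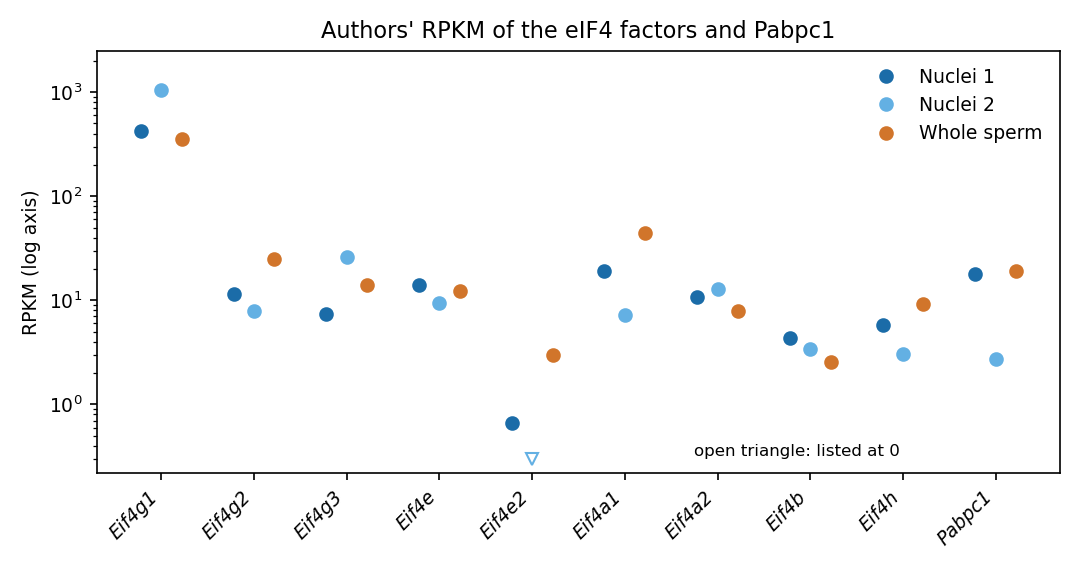
Level of each gene in the authors' RPKM (log axis) in nuclei 1, nuclei 2 and whole sperm, 1 point per library. Eif4g1 lies at 359 RPKM or above in every library, the other 9 genes at 44.6 RPKM or below, and Eif4e2 is listed at 0 in nuclei 2.

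Below Eif4g1 the order of levels was not fixed between the nuclei libraries. By mean RPKM over nuclei it ran Eif4g3, 16.8 ± 13.4 RPKM (SD, n = 2 here and below), Eif4a1, 13.3 ± 8.47 RPKM, Eif4a2, 11.8 ± 1.39 RPKM, Eif4e, 11.6 ± 3.25 RPKM, Pabpc1, 10.4 ± 10.8 RPKM, Eif4g2, 9.66 ± 2.58 RPKM, Eif4h, 4.43 ± 1.98 RPKM, and Eif4b, 3.88 ± 0.650 RPKM. Each neighbouring pair in this order from Eif4g3 to Eif4g2 lay within the spread of the nuclei libraries, and so did Eif4h and Eif4b. Eif4g1 was above and Eif4e2 below all the others in both nuclei libraries. Whole sperm had the order Eif4g1, Eif4a1, Eif4g2, Pabpc1, Eif4g3, Eif4e, Eif4h, Eif4a2, Eif4e2 and Eif4b.

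None of the 10 genes passed the test of nuclei against whole sperm at an adjusted p under 0.05 (edgeR quasi-likelihood test with Benjamini-Hochberg adjustment over 16720 features). Over the 14397 annotated genes tested, 0.0278% were called higher and 0.111% lower in nuclei. Taken without adjustment, 0 of the 10 had p under 0.05, where 5.44% of annotated genes did. DESeq2 called 0 of the 9 that had an adjusted p (all but Eif4e2), against 1.86% of annotated genes higher and 0.568% lower, and limma on RPKM called 0 of the 10 and 0.121% of annotated genes. The median log2 fold change was 0.49 over the 10 genes, with 6 above 0 and 4 below. It was -0.04 over the annotated genes tested, of which 49.2% lay above 0, and 0.27 over all features tested. All 10 genes passed the filter on low counts. With 1 residual degree of freedom, the standard errors come from a spread shared by all genes and not from each gene's own. A p above the threshold here does not show that levels were alike.

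**Figure D2:**
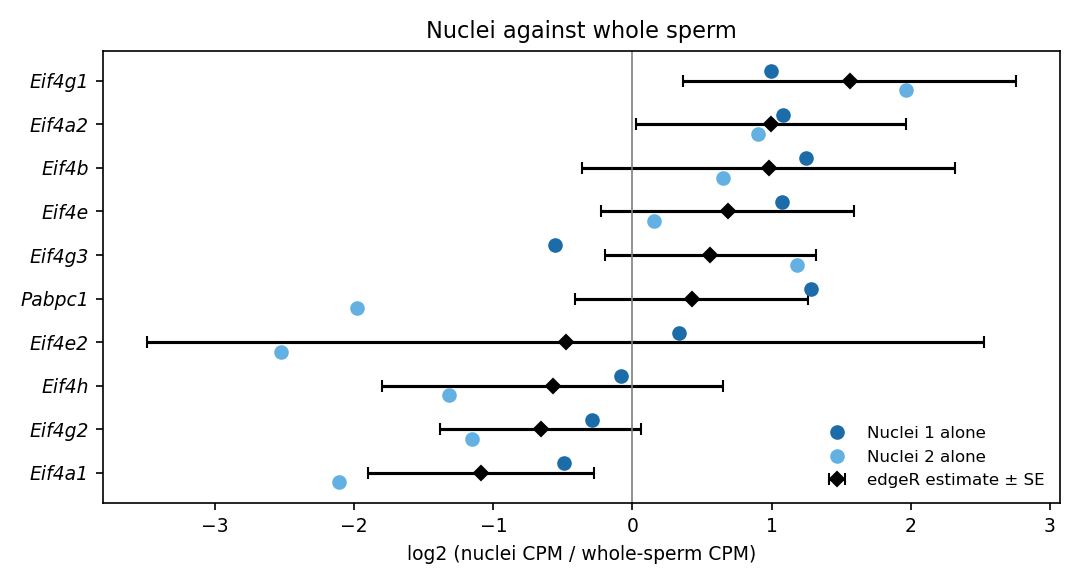
Log2 ratio of nuclei to whole-sperm CPM for each gene: circles give each nuclei library alone against whole sperm, diamonds the edgeR estimate over both, with bars of 1 SE. The circles of Eif4g3, Pabpc1 and Eif4e2 fall on opposite sides of 0.

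In CPM, both nuclei libraries were above whole sperm for 4 of the 10 genes, Eif4g1, Eif4e, Eif4a2 and Eif4b, where 26.1% of annotated genes had that pattern. Both were below for 3, Eif4g2, Eif4a1 and Eif4h, where 41.2% of annotated genes did. Eif4g3, Eif4e2 and Pabpc1 had the nuclei libraries on either side of whole sperm. These directions hold for TMM scaling. With spike-in scaling the fitted change of Eif4e, Eif4a2, Eif4b, Eif4g3 and Pabpc1 was below 0, where the median of all features was -1.16. By limma on log2(RPKM + 0.1) that of Eif4e, Eif4g3 and Pabpc1 was below 0, where the median of all features was -0.70. Of these changes, only that of Pabpc1 on log2(RPKM + 0.1), -1.42, lay below the median of its setting. Eif4g1 stayed above 0 in each.

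Among the scaffolds, Eif4g1 (build mm10, chromosome 16:20668313-20692884, plus strand, 32 merged exons) was at 6312 and 12391 CPM in nuclei 1 and 2 and 3168 CPM in whole sperm, a log2 fold change of 1.56 ± 1.20 (SE; edgeR adjusted p = 0.909). The nuclei values lay above whole sperm in both libraries. As a ratio, nuclei 2 exceeded nuclei 1 by about as much as nuclei 1 exceeded whole sperm. Eif4g3 (4:137993022-138208508, plus strand), a scaffold close to eIF4G1 whose mutation in mice stops meiosis in spermatocytes, had 106 and 355 CPM in the nuclei libraries against 156 CPM in whole sperm (log2 fold change 0.56 ± 0.76, edgeR adjusted p = 0.932). Its whole-sperm value lay between those of the nuclei libraries. Eif4g2 (7:111067750-111083030, minus strand) encodes DAP5, a shorter relative that lacks the eIF4E-binding part. Its level was 239 and 131 CPM in the nuclei libraries against 292 CPM in whole sperm (log2 fold change -0.66 ± 0.72, edgeR adjusted p = 0.909), with both nuclei libraries lower.

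Eif4g1 made up 95.8% and 96.8% of the summed RPKM of the 3 scaffold genes in nuclei 1 and 2, and 90.2% in whole sperm. In every library it was the leading scaffold transcript.

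**Figure D3:**
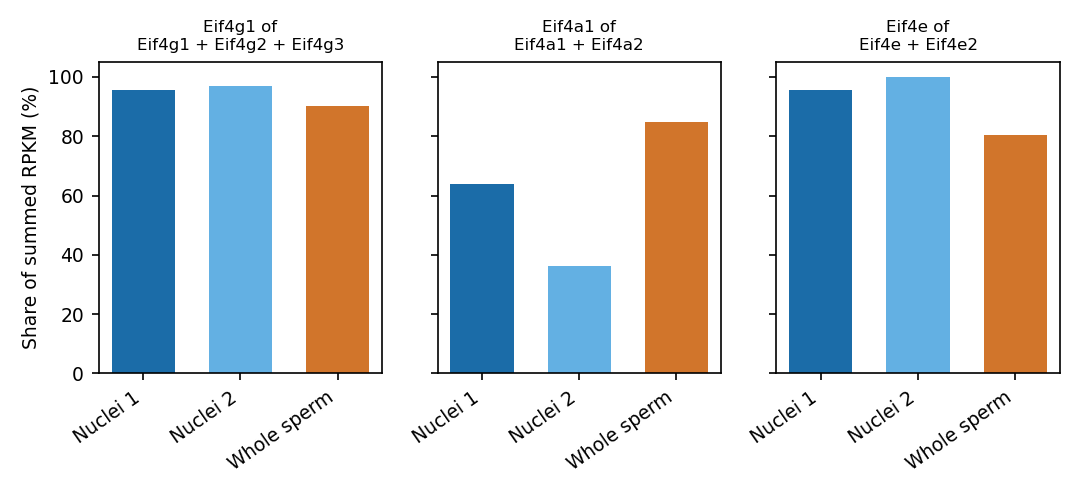
Share of each gene in the summed RPKM of its close relatives (percent), 1 bar per library, with no error bar since each is a single library. Eif4a1 makes up 64.1% (nuclei 1) and 36.4% (nuclei 2) of the Eif4a1 and Eif4a2 sum, against 84.9% (whole sperm).

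Among the cap-binding proteins, Eif4e (3:138526179-138559696, plus strand) encodes the main cap-binding factor. It had 111 and 58.9 CPM in the nuclei libraries against 53.0 CPM in whole sperm (log2 fold change 0.68 ± 0.91, edgeR adjusted p = 0.930). The nuclei 2 value was close to that of whole sperm. Eif4e2 (1:87213914-87240488, plus strand) encodes 4EHP, which binds the cap but not eIF4G and represses translation with GIGYF2. By counts it was the scarcest gene of the group in every library, with 74 and 13 counts in nuclei 1 and 2 and 97 counts in whole sperm, or 14.1, 1.95 and 11.2 CPM. Its log2 fold change was -0.48 ± 3.01 (edgeR adjusted p = 1.00), an error too wide to place it. The RPKM table, which names 1 RefSeq transcript per gene, lists Eif4e2 at 0.658 and 0 RPKM in nuclei and 3.01 RPKM in whole sperm although nuclei 2 had those 13 counts, so its shares in RPKM carry that limit.

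The helicase genes did not run together. Eif4a1 (11:69666936-69672423, minus strand), the helicase of most tissues, had 98.9 and 32.2 CPM in the nuclei libraries against 139 CPM in whole sperm (log2 fold change -1.09 ± 0.81, edgeR adjusted p = 0.909). Eif4a2 (16:23107444-23114136, plus strand), its close relative, had 79.6 and 70.2 CPM there against 37.5 CPM in whole sperm (log2 fold change 1.00 ± 0.97, edgeR adjusted p = 0.909). Eif4a1 was lower and Eif4a2 higher in each nuclei library than in whole sperm, though with spike-in scaling Eif4a2 was lower as well (log2 fold change -0.44). That scaling used only the 23 spike-ins with a row for every library, which held 364403 counts in whole sperm. Another 69 spike-ins, with 2206285 counts, had a row for whole sperm alone and were left out. Whether they would change the scaling was not tested. Eif4a1 made up 64.1% and 36.4% of the summed RPKM of the pair in nuclei 1 and 2, against 84.9% in whole sperm, so the more abundant helicase transcript of nuclei 2 was Eif4a2. This share was not tested. With the libraries scaled by their spike-ins, Eif4a1 passed as lower in nuclei (log2 fold change -2.51, edgeR adjusted p = 0.0408), the only one of the 10 genes to do so, where 3.66% of annotated genes were called lower and the median of all features stood at -1.16.

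The helicase cofactors were low beside Eif4g1 but stood above most annotated genes by RPKM. The percentile of Eif4b was 88.39 (nuclei 1), 83.02 (nuclei 2) and 72.31 (whole sperm). That of Eif4h was 90.95, 81.75 and 89.91 in the same order. Eif4b (15:102073773-102097173, plus strand) had 45.0 and 29.7 CPM in the nuclei libraries against 18.9 CPM in whole sperm (log2 fold change 0.98 ± 1.34, edgeR adjusted p = 0.935). Eif4h (5:134619721-134639490, minus strand) had 39.1 and 16.6 CPM there against 41.5 CPM in whole sperm (log2 fold change -0.57 ± 1.23, edgeR adjusted p = 0.989). Both nuclei libraries exceeded whole sperm for Eif4b, and for Eif4h nuclei 1 was close to whole sperm and nuclei 2 lower.

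Pabpc1 (15:36595661-36609668, minus strand) varied most between the nuclei libraries, at 1004 counts (nuclei 1) and 133 counts (nuclei 2), beside 681 counts for whole sperm. In CPM this was 192 and 19.9 for the nuclei libraries against 78.7 for whole sperm (log2 fold change 0.43 ± 0.84, edgeR adjusted p = 0.987). The log2 ratio of nuclei 1 to nuclei 2 was 3.23 for Pabpc1, wider than for 90.2% of the 6728 annotated genes with a mean of at least 10 CPM. The same ratio was 2.58 for Eif4e2, 1.60 for Eif4a1, -1.73 for Eif4g3 and -0.97 for Eif4g1, and narrowest, 0.18, for Eif4a2. Eif4g1 and Eif4g3 were the 2 genes with more CPM in nuclei 2 than in nuclei 1.

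Some of the 10 genes have close copies whose reads could be split or lost in counting. A search with the longest coding transcript of each gene found annotated pseudogenes alike over at least 300 bases at 90% identity or more for Eif4e (3), Eif4a1 (3), Eif4a2 (2), Pabpc1 (2) and Eif4b (1), none of which had a row of its own in the count tables. Whether reads of these 5 genes were split or lost was not tested, so their values carry that uncertainty. The search did not cover coding relatives. Eif4g1, Eif4g2, Eif4g3, Eif4e2 and Eif4h had no such copy. The only other protein-coding gene that overlapped one of the 10 was Rfc4, which meets the end of Eif4a2 on the opposite strand and had 3 and 4 counts (nuclei) against 14 counts (whole sperm). No assembled region lay over any of the 10 genes.

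The introns of these genes also hold small RNA genes, most of them small nucleolar RNAs, which guide chemical changes in other RNAs and are usually cut out of the host's introns. The annotation places 13 within 6 of the genes, of which 4 had a row in the count tables and 3 had counts. Their sequences are shown because each is a separate product of a locus described above. For the box C/D RNA Snord66 (75 bases, GENCODE vM21, 16:20684239-20684313, plus strand, in intron 19 of Eif4g1) the capitals mark the C and D boxes. For the H/ACA RNA Snora81 (178 bases, 16:23110756-23110933, plus strand, in intron 7 of Eif4a2) they mark the place of the ACA box, 3 bases before the end, which reads ATA here. For mmu-miR-1956 (RefSeq, build GRCm38.p6, 3:138526425-138526446, plus strand, in intron 1 of Eif4e) they mark the seed, bases 2 to 8.
Snord66: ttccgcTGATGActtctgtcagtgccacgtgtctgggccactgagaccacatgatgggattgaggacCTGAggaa
Snora81: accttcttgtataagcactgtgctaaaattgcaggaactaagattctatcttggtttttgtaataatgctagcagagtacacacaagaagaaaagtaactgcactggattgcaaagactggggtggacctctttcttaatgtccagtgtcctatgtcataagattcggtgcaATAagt
miR-1956: aGUCCAGGgcugagucagcgga

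Snord66 and Snora81 had less CPM in both nuclei libraries than in whole sperm, while their host genes had more; none of these differences passed the test. Snord66 had 314 and 416 counts (nuclei) against 878 (whole sperm), or 59.9 and 62.4 CPM against 101 CPM (log2 fold change -0.73 ± 0.86, edgeR adjusted p = 0.909). That was 9.49 and 5.03 counts per 1000 Eif4g1 counts in nuclei and 32.0 in whole sperm. Snora81 had 228 and 609 counts (nuclei) against 3499 (whole sperm), or 43.5 and 91.3 CPM against 404 CPM (log2 fold change -2.58 ± 0.72, edgeR adjusted p = 0.132, unadjusted p = 3.6e-04). Per 1000 Eif4a2 counts this was 547 and 1301 in nuclei and 10770 in whole sperm. In whole sperm and in nuclei 2 the small RNA thus outnumbered its host in counts, which are not scaled to length. In the authors' RPKM, Snora81 was at 68.4 and 180 (nuclei) and 1071 (whole sperm). Eif4a2 was below it in every library, at 10.8, 12.8 and 7.91 RPKM in the same order. In nuclei, Snord66 was at 267 and 366 RPKM, below Eif4g1 (426 and 1042 RPKM). In whole sperm it was at 722 RPKM, above Eif4g1 (359 RPKM). Mir1956 had 18 and 67 counts (nuclei) against 31 (whole sperm; log2 0.91 ± 4.35, edgeR adjusted p = 1.00). Snord2, in Eif4a2, had no count in any library; 3 counts, the limit that a count of 0 allows, would be 0.573 and 0.450 CPM in nuclei against 0.347 CPM in whole sperm. No coding transcript that spans any of these 4 small RNAs has an exon there, but other annotated transcripts of the host do, and the annotated microRNA gene Gm49346 overlaps Snora81, so reads there cannot be told apart by gene.

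**Figure D4:**
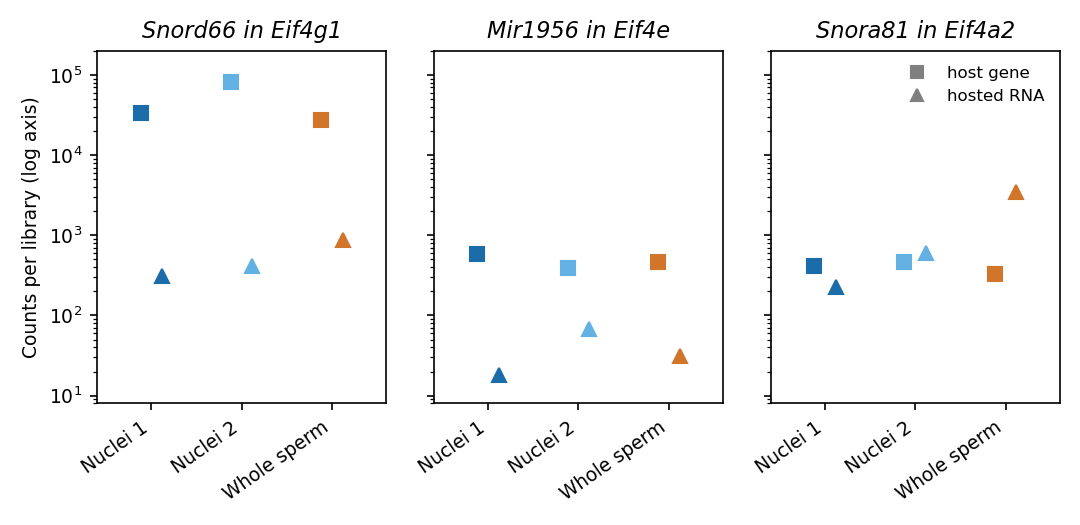
Counts per library (log axis) of each small RNA with counts (triangles) and of the gene whose intron holds it (squares), in nuclei 1, nuclei 2 and whole sperm. For Snora81 the triangle lies above the square in nuclei 2 and whole sperm, and for Snord66 below it throughout. Counts are not scaled to length.

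Other genes of cap-dependent initiation were described in the same fit. Of 32 listed paralogs, regulators and nuclear cap- or tail-binding genes, all had a row and 28 were tested; 0 were called in either direction, where 0.0278% of annotated genes were called higher and 0.111% lower. Without adjustment, 1 of the 28 was higher and 1 lower with p under 0.05, a count near the background, since 5.44% of annotated genes passed there. The median log2 fold change of the 28 was 0.20, with 14 above 0 and 14 below. By mean level Pabpn1, the nuclear poly(A)-binding protein, led with 991 and 2194 CPM in the nuclei libraries against 638 CPM in whole sperm (log2 fold change 1.32, edgeR adjusted p = 0.909). Rptor and Mtor, components of the kinase complex that frees eIF4E from its inhibitors, were at 352 and 750 CPM in nuclei against 227 CPM, and at 119 and 258 CPM in nuclei against 102 CPM. Gigyf2, the 4EHP partner, had 211 and 234 CPM in the nuclei libraries against 89.6 CPM in whole sperm. For these 4 genes both nuclei libraries were above whole sperm, with an edgeR adjusted p of 0.909 each.

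Paip2, an inhibitor of PABPC1, had 119 and 84.5 CPM in the nuclei libraries against 160 CPM in whole sperm (log2 fold change -0.65), and Larp1, a binder of mRNAs for translation factors, 120 and 113 CPM there against 86.2 CPM in whole sperm (log2 fold change 0.43). The 6 tested paralogs had a median log2 fold change of 1.60, with 4 above 0 and 2 below, among them Pabpc4l, which had no count in whole sperm; the median was the same with that gene at its bound. The 18 tested regulators and partners had a median of -0.13, with 8 above 0 and 10 below, and the 4 nuclear cap- and tail-binding genes one of -1.50, with 2 on each side. The paralog past the unadjusted threshold was Eif4e3, an atypical cap-binding relative of eIF4E, named after its values were seen, with 903 and 446 counts (nuclei) against 113 (whole sperm; log2 3.19 ± 1.02, edgeR adjusted p = 0.26). The other gene past it was Ncbp1, the large subunit of the nuclear cap-binding complex, also named after its values were seen, with 6 and 10 counts (nuclei) against 337 (whole sperm; log2 -4.86 ± 2.29, edgeR adjusted p = 0.746). Neither passed over all genes.

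**Figure D5:**
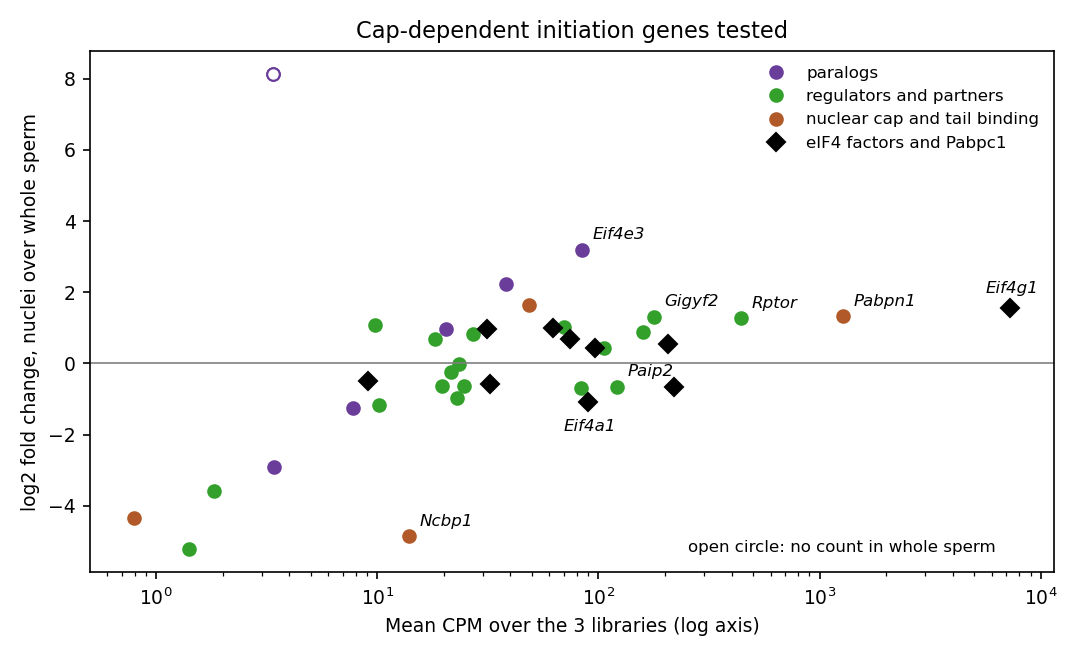
Log2 fold change of nuclei over whole sperm against mean CPM over the 3 libraries (log axis) for the 28 tested genes of cap-dependent initiation (circles, by role) and the 10 eIF4 and Pabpc1 genes (diamonds). Eif4g1 lies furthest right; Eif4e3 at 3.19 and Ncbp1 at -4.86 lie furthest from 0 among genes with a mean of at least 10 CPM, and the open circle, Pabpc4l, had no count in whole sperm.

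The genes whose pattern over the 3 libraries was most like that of Eif4g1 were Dcaf15, Map4, Spata3, Trio and Dot1l, by Euclidean distance between centred log2(CPM + 1) values among 938 other annotated genes with a mean of at least 100 CPM. Their distances ran from 0.0267 to 0.0909, where the median gene was at 1.02, Eif4g3 at 1.09 and Eif4g2 at 2.21. With 3 points per gene this is a description only. Map4, a microtubule-binding protein gene, had 1501 and 2773 CPM in the nuclei libraries against 734 CPM in whole sperm, and Trio had 2062 and 3761 CPM there against 982 CPM in whole sperm. Dot1l, a histone H3 methyltransferase gene, had 291 and 609 CPM in the nuclei libraries against 159 CPM in whole sperm. None of the 5 was called, with edgeR adjusted p between 0.818 and 0.909.

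The authors also deposited an adjusted whole-sperm column, which subtracts the average nuclei count of each row from its whole-sperm count and stops at 0. All 25610 rows held to this within 0.5. The column stood at 0 for 5 of the 10 genes, Eif4g1, Eif4g3, Eif4e, Eif4a2 and Eif4b, where 34.1% of all rows with a whole-sperm count were set to 0. The other genes kept 69.7% of their whole-sperm counts (Eif4a1), 57.9% (Eif4g2), 56.0% (Eif4h), 55.7% (Eif4e2) and 16.6% (Pabpc1), against 40.8% over all rows. The subtraction works on counts that were not scaled for depth. For 2 of the 5 genes at 0, only 1 nuclei library exceeded whole sperm in counts: Eif4g3, at 558 and 2368 counts (nuclei) against 1355 (whole sperm), and Eif4e, at 584 and 393 counts (nuclei) against 459 (whole sperm).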

How the data were processed

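The authors deposited whole-number counts per gene, assembled region and ERCC spike-in for 3 preparations, an adjusted whole-sperm column (handled as a score) and a table of RPKM values. The submitters' processing notes name HTSeq, bedtools, TopHat2 2.0.12, DESeq2, SAMtools 0.1.19, CASAVA 1.8.2, Cufflinks 2.1.1 and build mm10. What each did, and whether counting used strand, is not given in the sources used here. Per deposited count, RPKM in nuclei was 0.981 (nuclei 1) and 0.978 (nuclei 2) times that of whole sperm in the median over 6598 features, so in the median RPKM ratios are near ratios of raw counts. Pabpc1 (0.639 and 0.738) and Eif4e2 (0.287 and 0) departed from this.

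Spike-ins and, from the whole-sperm table, reads outside features (34.4% of it) and ambiguous reads (1.97%) stayed out. The test was edgeR 4.0.16 (R 4.3.3), TMM, filterByExpr, nuclei over whole sperm, over all features, with Benjamini-Hochberg adjustment; the single library of whole sperm is taken to vary as nuclei do. Standard errors were derived from the F statistic. Alternatives used DESeq2 1.42.0, limma 3.58.1 on log2(RPKM + 0.1) or log2(RPKM + 1), other scalings and filters, and each nuclei library alone. The scaling by spike-ins used the 23 with a row for every library and left out 69 with a row for whole sperm alone. The script was run on simulated data, and the share of known changes that it recovered is not given here. Annotation came from GENCODE vM21 (the same assembly as mm10) and RefSeq; copies were sought with BLAST 2.17.0. The 2 listed genes without a row under their own symbol, Ncbp3 and Hbb-bs, were matched through RefSeq synonyms. Preparations are not tied to animals, so the spread may be technical. Members, lists and the naming rule (all members, listed genes past the threshold or among the 6 with highest mean CPM, small RNAs with a count, the 5 genes nearest to Eif4g1) were chosen with earlier results of these data known.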

Additional observations from a re-analysis of the deposited data

Results flagged for a closer look

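Some reads lay outside the rows compared here, which is why they are listed. In the deposited table for whole sperm, 5896320 reads belonged to no feature and 336963 were ambiguous. The nuclei tables give no such totals, so how many reads at the small RNAs inside Eif4g1, Eif4a2 and Eif4e were set aside was not tested in any library.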

How the results depend on the processing

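Eif4g1 kept a log2 fold change above 0 (0.12 to 1.97) in all of 13 alternatives. Eif4g2 (-2.09 to -0.21), Eif4a1 (-2.51 to -0.41) and Eif4h (-2.0 to -0.0035) kept one below 0 in all. The highest value of Eif4h came from nuclei 1 alone, where it hardly differed from whole sperm. For the 10 genes, no direction and no call changed with DESeq2 size factors, with unscaled library sizes, without the 10 most abundant features, without a filter, with a minimum mean of 10 CPM (which drops Eif4e2) or in the DESeq2 test, where Eif4g1 had an adjusted p of 0.0909 (0.0909 to 0.968 over the alternatives with a test). Spike-in scaling called 1 gene lower, moved the median of the 10 genes to -0.94 (all features -1.16, against 0.49 and 0.27) and turned Eif4g3 (-0.88), Eif4e (-0.75), Eif4a2 (-0.44), Eif4b (-0.45) and Pabpc1 (-0.99). On log2(RPKM + 0.1), with any filter, the median was -0.61 (all features -0.70 with RPKM above 0 in 2 or more libraries), and Eif4g3 (-0.020), Eif4e (-0.098) and Pabpc1 (-1.42) turned. On log2(RPKM + 1) it was -0.53 (all features -0.29), with Eif4g3 at -0.0024, Eif4e at -0.089 and Pabpc1 at -1.25. From single nuclei libraries, with no test, the median was -0.50 without nuclei 1 and 0.74 without nuclei 2. Pabpc1 was at -1.97 without nuclei 1 and 1.36 without nuclei 2, Eif4g3 at 1.18 and -0.47, and Eif4e2 at -2.38 and 0.41. Which nuclei library was used thus set the direction of Eif4g3, Eif4e2 and Pabpc1. Spike-in scaling applies 1 factor per library to all genes alike. The cause of the other changes was not tested. No paired analysis was possible because the groups share fewer than 2 replicate numbers. RPKM per count of Pabpc1 in nuclei was 0.639 and 0.738 times that of whole sperm; its part in the turn was not tested. Eif4e2 rests on 13 counts in nuclei 2, which limits its precision.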
